A study of Mus musculus with 8 samples.

Results

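Most of the genes described here encode the protein parts of the cytosolic ribosome and the factors that start and extend translation. They were chosen by symbol, taking symbols that start with Rpl or Rps or that carry the numbered Eif and Eef names of initiation and elongation factors, and leaving out the S6 kinases (Rps6k), the Rps19bp genes and loci named as pseudogene copies (-ps). This gave 161 of the 55450 genes in the table. They comprised 92 ribosomal protein genes (55 Rpl genes of the large subunit and 37 Rps genes of the small subunit), 56 initiation factor genes and 13 elongation factor genes. Of these, 89, 55 and 13 passed the filter on low counts, which left out Rpl3l, Rpl10l, Rpl39l and Eif2c5. The symbol rule also took in loci that are not annotated as protein-coding, 7 in the ribosomal protein class and 1 among initiation factors. The other 153 are annotated as protein-coding.

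RNA-sequencing was performed on CD45-EpCAM+ thymic epithelial cells (TECs), the stromal cells that guide T cell development, sorted from embryonic day 17 thymus. The embryos carried 1 tdTomato knock-in allele at Ccl21a, the gene of a chemokine that attracts thymocytes to the medulla, and a Venus transgene that reports Tnfrsf11a, the gene of the receptor RANK, so CCL21 and RANK here stand for reporter fluorescence. The populations were CCL21+RANK- (tdTomato+Venus-, 3 libraries), CCL21-RANK+ (tdTomato-Venus+, 3 libraries) and CCL21-RANK- (tdTomato-Venus-, 2 libraries). The libraries held 59677342, 46003149 and 55116934 counts for CCL21+RANK-, 57286773, 50146758 and 42751858 for CCL21-RANK+, and 67451448 and 71625319 for CCL21-RANK-. The labels do not say whether the libraries came from separate embryos or pools, so p-values measure only the spread between these libraries.

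The reporter genes were compared with the labels of the populations. Tnfrsf11a stood at 99.5, 92.5 and 103 RPKM (reads per kilobase of exon, scaled to the TMM-adjusted library size) in CCL21-RANK+ libraries and between 2.21 and 10.5 in the other libraries. Ccl21a stood at 579, 385 and 293 RPKM in CCL21+RANK- libraries, at 136, 95.3 and 75.0 in CCL21-RANK+ libraries, and at 7.48 and 8.69 in CCL21-RANK- libraries. Thus CCL21-RANK+ TECs, although labelled CCL21-, held Ccl21a transcripts above the level of CCL21-RANK- TECs. Epcam was present in all 8 libraries at 48.3 to 140.2 RPKM, and so was Foxn1, the defining transcription factor of TECs, at 48.7 to 104 RPKM. The levels of TEC markers differed between populations. Of 8 listed, 5 were higher and 2 lower in CCL21+RANK- than CCL21-RANK+ TECs (edgeR, adjusted p under 0.05, 23.1% and 30.6% of all tested genes). Mean RPKM in CCL21+RANK-, CCL21-RANK+ and CCL21-RANK- TECs was 2260, 415 and 2299 for Krt18, and 0.776, 107 and 0.499 for Aire. Ptprc, which encodes CD45, did not exceed 0.517 RPKM.

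A ribosome is built from ribosomal RNA and a fixed set of proteins, most of which are present in 1 copy each. Initiation factors bring the small subunit and the initiator tRNA to the mRNA: the eIF4 group binds the cap and unwinds the leader, eIF3 bridges mRNA and subunit, and eIF2 carries the initiator tRNA. Elongation factors then deliver aminoacyl-tRNAs (eEF1) and move the ribosome along (eEF2). Cells tune this machinery through kinases that phosphorylate the alpha subunit of eIF2 and lower initiation, through 4E-binding proteins that hold the cap-binding protein eIF4E, and through eEF2 kinase, which slows elongation. Many mRNAs of this machinery begin with a terminal oligopyrimidine tract, a C followed by a run of C and T, through which mTORC1 and the RNA-binding protein LARP1 control their translation.

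To show this feature in the genes that the results turn on, the 30 bases from 10 before to 20 after the annotated start (RefSeq, GRCm38.p6, on the coding strand) are given with any tract in capitals. A tract was a C followed by at least 5 bases that were each C or T, beginning within 10 bases of the start, searched on the coding strand alone.
Rps12 (chr10:23787190-23787219, minus strand): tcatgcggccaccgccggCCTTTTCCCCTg
Rpl12 (chr2:32961702-32961731, plus strand): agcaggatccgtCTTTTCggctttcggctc
Rpl22l1 (chr3:28805498-28805527, plus strand): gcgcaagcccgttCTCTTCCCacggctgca
Eef1a1 (chr9:78481705-78481734, minus strand): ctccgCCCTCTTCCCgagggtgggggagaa
Rpsa (chr9:120127756-120127785, plus strand): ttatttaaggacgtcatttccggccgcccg
Rpl22 (chr4:152325716-152325745, plus strand): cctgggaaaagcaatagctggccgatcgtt
Rps28 (chr17:33824543-33824572, minus strand): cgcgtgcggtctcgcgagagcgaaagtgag
Eif5a (chr11:69921939-69921968, minus strand): ccgaagccgggatggttgtaatccgaccac
Eef2k (chr7:120842821-120842850, plus strand): cccgtgcgtcagtcccgccccagccctggt
The first 4 windows hold a tract and the last 5 hold none by this definition. Start sequences were found for 67 ribosomal protein genes, and 33 of them (49.3%) held a tract, against 10 of 44 initiation factor genes (22.7%), 2 of 9 elongation factor genes (22.2%) and 19.2% of the 27025 genes in the table for which a start sequence was found. A match describes these letters at 1 annotated start and not a site in use. The lack of a match likewise describes that annotated start alone. Eef2, listed below among mRNAs known to start with a tract, held none in this search.

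The summed share of ribosomal protein genes was unequal between the populations. Their share of the library counts was 2.05%, 2.29% and 2.84% in CCL21+RANK- libraries, 3.00%, 3.53% and 3.51% in CCL21-RANK+ libraries, and 3.60% and 4.11% in CCL21-RANK- libraries. On this scale the 3 populations did not overlap, with CCL21+RANK- TECs lowest and CCL21-RANK- TECs highest. The separation depended on the denominator. Without the abundant loci Gm26917 and Gm42418, CCL21-RANK+ replicate 2 (4.59%) lay above both CCL21-RANK- libraries (4.54% and 4.48%), and in summed TMM-scaled CPM CCL21-RANK+ replicate 1 (26950.0) lay below CCL21+RANK- replicate 3 (27265). The CCL21+RANK- libraries lay below both CCL21-RANK- libraries on all 3 scales. The small nuclear RNA Rn7sk stood at 19695 and 21665 RPKM in CCL21-RANK- libraries and at 5530.5 to 11918 in the others (log2 fold change of CCL21-RANK+ over CCL21-RANK- -1.29, adjusted p = 0.00436), and the part of this difference in composition was not tested. Initiation factors took 0.605%, 0.570% and 0.690% of the counts in CCL21+RANK- libraries, 0.722%, 0.785% and 0.797% in CCL21-RANK+ libraries, and 0.648% and 0.757% in CCL21-RANK- libraries, so that the CCL21-RANK- libraries lay within the range of the others. Elongation factors took 0.809% ± 0.142 (SD, n = 3), 1.13% ± 0.120 (SD, n = 3) and 1.18% ± 0.041 (SD, n = 2) in the same order.

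**Figure D1:**
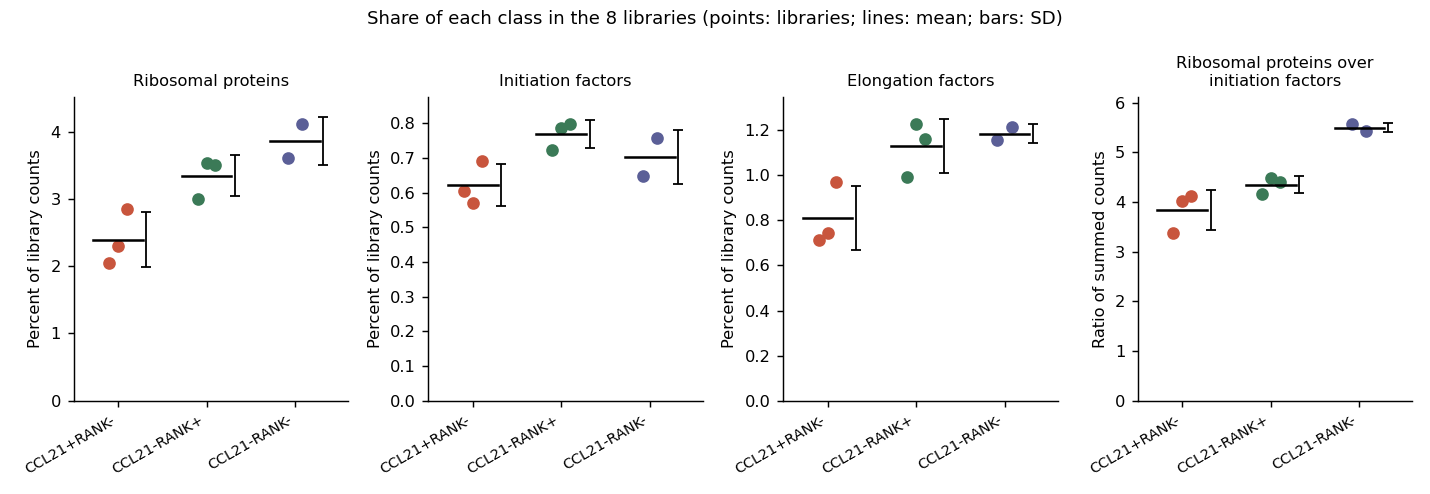
Percent of library counts from each class, and the ratio of ribosomal protein to initiation factor counts, with 1 point per library, a line at the group mean and a bar of 1 SD. Ribosomal proteins take 2.05% to 2.84% in CCL21+RANK- libraries and 3.60% to 4.11% in CCL21-RANK- libraries, and the ratio is highest, at 5.57 and 5.43, in CCL21-RANK- libraries.

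The ratio of ribosomal protein to initiation factor counts within a library does not depend on how libraries are scaled to each other. It was 3.38, 4.02 and 4.12 in CCL21+RANK- libraries, 4.16, 4.49 and 4.41 in CCL21-RANK+ libraries, and 5.57 and 5.43 in CCL21-RANK- libraries. The ratio therefore rose in the same order as the share, and the gap between CCL21+RANK- replicate 3 and CCL21-RANK+ replicate 1 was small. The ratio of ribosomal protein to elongation factor counts varied less, from 2.88 to 3.39 over the 8 libraries, with an overlap of the 2 reporter-positive populations. In bulk RNA, fewer cells of a type and less RNA per cell cannot be told apart.

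The ribosomal protein genes were singled out from their fold changes in CCL21+RANK- relative to CCL21-RANK- TECs, so this comparison is given as a description with no test. The median log2 fold change of ribosomal proteins was -0.68, against 0.00 over all tested genes, -0.10 for initiation factors and -0.44 for elongation factors. Core genes leave out paralogs, regulators, associated proteins and loci not annotated as protein-coding. Their medians were -0.69 for ribosomal proteins, -0.19 for initiation factors and -0.56 for elongation factors. In 85 of the 89 tested ribosomal protein genes, each CCL21+RANK- library lay below both CCL21-RANK- libraries, and in 0 it lay above them, against 24.3% and 20.1% of all tested genes. The deepest differences were in Rplp1, a protein of the stalk that recruits elongation factors, at 399, 512 and 514 RPKM in CCL21+RANK- libraries and 1032 and 1036 in CCL21-RANK- libraries (log2 fold change -1.12), followed by Rpl12 at the stalk base (-1.004) and Rpl32 of the large subunit (-0.97). Among ribosomal protein genes with a mean over 1 RPKM, none was higher in CCL21+RANK- than CCL21-RANK- TECs.

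**Figure D2:**
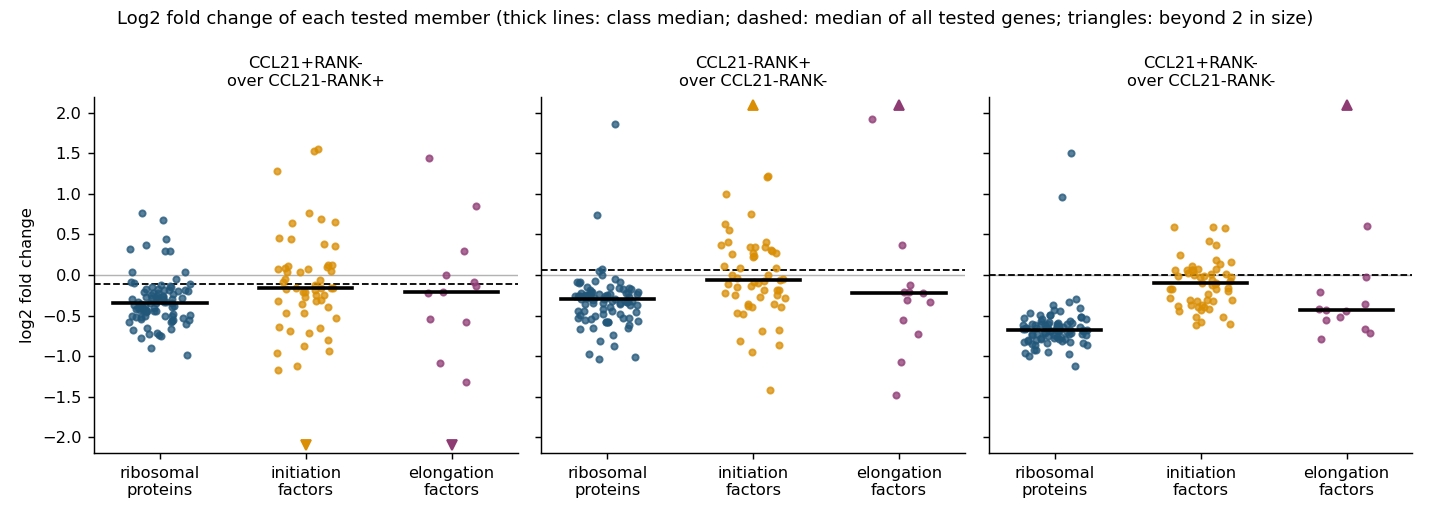
Log2 fold change (vertical axis) of each tested member by class in the 3 comparisons, with a thick line at the class median and a dashed line at the median of all tested genes. Triangles mark members beyond 2 in size, and the ribosomal proteins sit below the dashed line most clearly in CCL21+RANK- over CCL21-RANK- TECs, where their median is -0.68.

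CCL21+RANK- TECs were then compared with CCL21-RANK+ TECs. The 2 tested comparisons share libraries with the one above and with each other, so they are not independent of it. Ribosomal protein transcripts were lower in CCL21+RANK- TECs for 37 of the 89 genes tested and higher for 2, Rpl22 and Rps4l (edgeR quasi-likelihood test, adjusted p under 0.05), with a median log2 fold change of -0.35. Over all tested genes 53.7% were called, 30.6% lower and 23.1% higher, and the median was -0.11. Each CCL21+RANK- library lay below each CCL21-RANK+ library in 35 ribosomal protein genes and above in 3, against 33.7% and 27.5% of all tested genes. The other 50 ribosomal protein genes did not pass the test. With DESeq2's Wald test the count of 37 was 61, and with at least 10 counts in every library it was 63. Of all tested genes 55.8% and 55.6% were then called in either direction. At a fold over 1.5 and RPKM over 1 the count was 9, where 15.0% of all tested genes were lower. With no filter on low counts the medians of ribosomal proteins and of all genes were both -0.40. Small subunit genes were called lower in 20 of 37 cases (median -0.43) and large subunit genes in 17 of 52 (median -0.27), and this difference between subunits was not tested.

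The 37 genes were led by Rpsa, a small subunit protein also known as the laminin receptor. It stood at 153, 177 and 201 RPKM in CCL21+RANK- libraries, 269, 400.3 and 384 in CCL21-RANK+ libraries and 333 and 336 in CCL21-RANK- libraries. The log2 fold change between CCL21+RANK- and CCL21-RANK+ was -0.99 ± 0.17 (SE, adjusted p = 0.000954). CCL21+RANK- libraries were all below the rest, while CCL21-RANK+ libraries lay on both sides of the CCL21-RANK- libraries.

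Genes of the ribosomal stalk and its base (Rplp0, Rplp1, Rplp2 and Rpl12) were grouped after their values were seen, so their number is no result about the stalk. Rplp1 stood at 664, 890.5 and 897 RPKM in CCL21-RANK+ libraries, and its log2 fold change from them to CCL21+RANK- was -0.78 ± 0.15 (SE, adjusted p = 0.00173). Rplp0, the stalk's anchor, fell by 0.72 on the log2 scale (SE 0.17, adjusted p = 0.00556), and Rpl12 fell by 0.75 (SE 0.18, adjusted p = 0.00570). Rplp2 stood at 96.9, 108 and 137 RPKM in CCL21+RANK- libraries and 147, 170.5 and 182 in CCL21-RANK+ libraries (log2 fold change -0.54, SE 0.14, adjusted p = 0.00984). In each of them CCL21+RANK- replicate 1 was the lowest library.

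Among small subunit proteins, Rps12 stood at 138.5, 181 and 159 RPKM in CCL21+RANK- libraries and 229.9, 290.1 and 283 in CCL21-RANK+ libraries (log2 fold change -0.75, SE 0.14, adjusted p = 0.00136). Rps2 fell by 0.72 (SE 0.19, adjusted p = 0.00963). Rps6, the ribosomal substrate of the S6 kinases, stood at 229, 303 and 307 RPKM against 346, 461 and 435 (log2 fold change -0.56, SE 0.15, adjusted p = 0.0113). In each of these genes CCL21+RANK- replicate 1 was again the lowest library.

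Other members differed by less. Rpl41, the shortest ribosomal protein, fell by 0.41 (SE 0.13, adjusted p = 0.0205), a call that was lost without CCL21+RANK- replicate 1 or CCL21-RANK+ replicate 2 (highest adjusted p over all alternatives, 0.0707). Rpl3 and Rpl10 of the large subunit had log2 fold changes of -0.34 (adjusted p = 0.0823) and -0.27 (adjusted p = 0.130). They passed the test in 7 and 5 of 18 alternatives, DESeq2's size factors, library totals and DESeq2's Wald test among them.

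**Figure D3:**
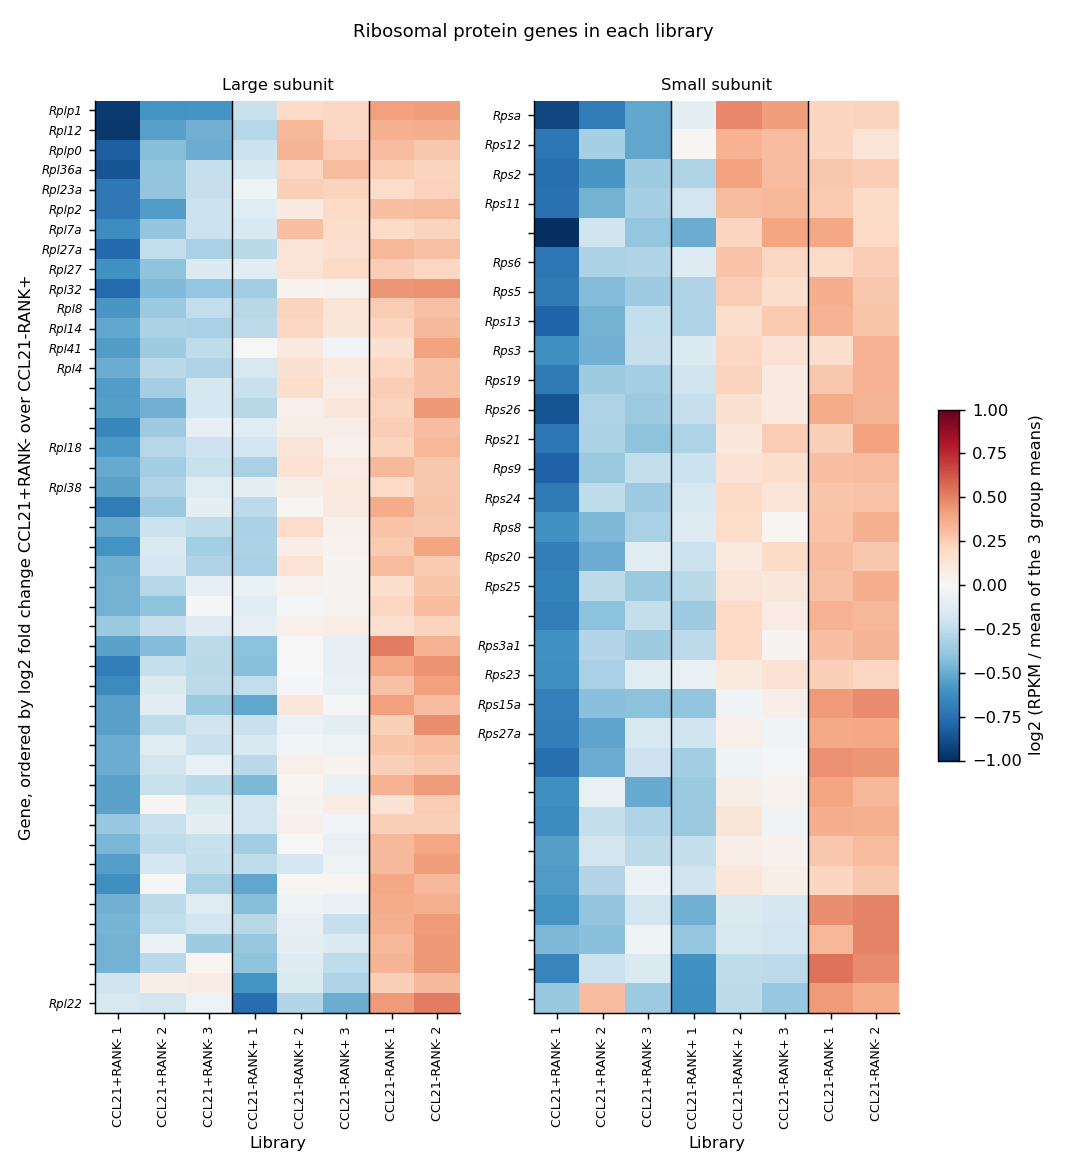
Log2 of RPKM over the mean of the 3 group means for the 77 core ribosomal protein genes (rows, ordered by the log2 fold change of CCL21+RANK- over CCL21-RANK+ TECs) in the 8 libraries (columns), with symbols on the rows called in that comparison. CCL21+RANK- replicate 1 is the lowest library for 74 of the 77 genes, and a CCL21-RANK- library is the highest for 67.

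The difference in ribosomal protein transcripts was not alike in the CCL21+RANK- libraries. Of the 77 core genes (leaving out paralogs and loci not annotated as protein-coding), 74 were lowest in CCL21+RANK- replicate 1, and 67 were highest in a CCL21-RANK- library. Without CCL21+RANK- replicate 1, 16 ribosomal protein genes were called lower than in CCL21-RANK+ TECs, without CCL21-RANK+ replicate 2 the count was 19 and without CCL21-RANK+ replicate 3 it was 20, with a median log2 fold change of -0.25 in the first case. Of all tested genes 49.98%, 51.2% and 48.2% were called in either direction in these settings. The same replicate 1 held the most transcripts of parathyroid genes, a gland that arises from the same pouch as the thymus. The 4 parathyroid markers summed to 7351, 1944 and 1874 RPKM in CCL21+RANK- libraries and to between 11.0 and 25.9 RPKM elsewhere, with Chga (4192, 976 and 978 RPKM) the most abundant and none of the 4 at 0 in any library. Pth and Chga took 0.213% and 1.12% of the counts of replicate 1, and their part in the ribosomal protein result was not tested.

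Genes of the S and G2/M phases were also lower in CCL21+RANK- than CCL21-RANK+ TECs. All 10 markers tested were called lower, against 30.6% of all tested genes (median log2 fold change -1.54), and they summed to 81.8, 80.3 and 84.9 RPKM in CCL21+RANK- libraries, 161, 240.5 and 213 in CCL21-RANK+ libraries, and 159.6 and 177 in CCL21-RANK- libraries. Pcna was the most abundant of them, at 23.9 to 55.6 RPKM, and none was at 0 in any library. In CCL21-RANK+ over CCL21-RANK- TECs, 2 of the 10 were called higher and 0 lower, against 27.0% and 21.9% of all tested genes. Their part in the ribosomal protein result was not tested.

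Other marker lists were read for cells that the sort could have admitted. A transcript alone does not show whether it came from such cells or from the TECs. Aire stood at 117, 93.5 and 109 RPKM in CCL21-RANK+ libraries and at 0.118 to 0.896 RPKM in the other libraries. According to the paper, Aire promotes transcription of genes from across the genome in some medullary TECs. Thymocyte and leukocyte markers summed to 66.3, 24.3 and 34.1 RPKM in CCL21-RANK+ libraries and to 3.22 to 12.8 RPKM elsewhere, with 10 of 12 called higher than in CCL21-RANK- TECs (27.0% of all tested genes) and Lyz2 (46.9 RPKM in CCL21-RANK+ replicate 1) the most abundant. The 7 fibroblast markers summed to 47.3, 27.0 and 31.7 RPKM in CCL21-RANK+ libraries against 1.78 to 4.37 elsewhere, with 5 called lower and 1, Pdgfra, called higher in CCL21+RANK- than CCL21-RANK+ TECs (30.6% and 23.1% of all tested genes). The 5 endothelial markers summed to 3.66, 2.19 and 1.82 RPKM in CCL21-RANK+ libraries and to 0.125 to 0.499 elsewhere, and 3 of the 4 tested were called higher than in CCL21-RANK- TECs. Erythroid markers varied from 6.82 to 492 RPKM with no order by population. Whether the transcripts of these lists came from admitted cells or from TECs was not tested, nor was their part in the results.

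In CCL21-RANK+ compared to CCL21-RANK- TECs, 25 of the 89 ribosomal protein genes were lower in CCL21-RANK+ TECs and 0 were higher, with a median log2 fold change of -0.29. Over all tested genes 49.0% were called, 21.9% lower and 27.0% higher, and the median was 0.06. The count of 0 higher came from edgeR's quasi-likelihood test, and DESeq2's Wald test and an unadjusted p under 0.05 also gave 0. The count of 25 was 14 with library totals, 16 with upper-quartile scaling and 12 with at least 10 counts in every library, where the median was -0.11. It was 41 with the replicate number as a block. Of all tested genes 44.9%, 47.5%, 48.5% and 44.0% were called in either direction in these settings, in the order given. The CCL21-RANK+ libraries all lay below both CCL21-RANK- libraries in 70 of the 89 genes and above them in 0, against 32.7% and 36.1% of all tested genes. The count of 25 was 13 on leaving out replicate 1 of CCL21-RANK- and 8 on leaving out its replicate 2, each of which leaves 1 library in that population, assumed to vary like the other groups, and 30.6% and 29.3% of all tested genes were then called in either direction.

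Rps28, a small subunit protein, showed this pattern. It stood at 244 and 232 RPKM in CCL21-RANK- libraries, 109.7, 140.4 and 139 in CCL21-RANK+ libraries, and 106, 144 and 151 in CCL21+RANK- libraries. The log2 fold change between CCL21-RANK+ and CCL21-RANK- was -0.87 ± 0.17 (SE, adjusted p = 0.00213), whereas that between CCL21+RANK- and CCL21-RANK+ was 0.04 (adjusted p = 0.839). Thus the 2 reporter-positive populations overlapped and both lay below the reporter-negative one. Rps27, a zinc finger protein of the small subunit, was likewise lower in CCL21-RANK+ than CCL21-RANK- TECs (log2 fold change -0.81, SE 0.20, adjusted p = 0.00804), as was Rpl32 (-0.53, adjusted p = 0.0179), a call lost without either CCL21-RANK- library, with library totals, with upper-quartile scaling and with at least 10 counts in every library.

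Rpl22 and Rps4l were the class members called higher in CCL21+RANK- than CCL21-RANK+ TECs. Rpl22, a large subunit protein whose loss is known to impair T cell development, stood at 42.8, 42.2 and 46.2 RPKM in CCL21+RANK- libraries, 28.2, 39.0 and 33.9 in CCL21-RANK+ libraries, and 64.3 and 68.1 in CCL21-RANK- libraries. It was higher in CCL21+RANK- than CCL21-RANK+ TECs (log2 fold change 0.38, SE 0.12, adjusted p = 0.0270) and lower in CCL21-RANK+ than CCL21-RANK- TECs (-0.97, SE 0.14, adjusted p = 0.000285). The first of these calls was lost with library totals or upper-quartile scaling, with a filter of at least 10 counts in every library, and without CCL21+RANK- replicate 3, CCL21-RANK+ replicate 1 or CCL21-RANK+ replicate 3, and the second held in all alternatives run.

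Its paralog Rpl22l1, which can replace Rpl22 in the ribosome, stood at 14.3, 13.9 and 15.7 RPKM in CCL21+RANK- libraries, 18.3, 26.5 and 24.9 in CCL21-RANK+ libraries, and 26.0 and 25.8 in CCL21-RANK- libraries. It was lower in CCL21+RANK- than CCL21-RANK+ TECs (log2 fold change -0.67, SE 0.14, adjusted p = 0.00287). The 2 paralogs thus had opposite signs in this comparison, and the difference between them was not tested.

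Levels of the other paralogs ranged widely. Rpl10l, Rpl39l and Rpl3l, which are known from testis or striated muscle, did not exceed 0.0820 RPKM in any library, and Rpl10l was at 0 in all 8. Rps27l, a p53 target, stood at 20.5 to 39.1 RPKM, with a log2 fold change of -0.42 between CCL21-RANK+ and CCL21-RANK- TECs (adjusted p = 0.0353), a call lost in 11 of 18 alternatives. Rpl39, the parent of Rpl39l, differed by -0.58 in the same comparison (adjusted p = 0.00700), a call lost without CCL21-RANK- replicate 1. Rps4l, which GENCODE lists as a transcribed processed pseudogene, stood at 57.2, 71.7 and 73.5 RPKM in CCL21+RANK- libraries, 44.3, 40.9 and 41.6 in CCL21-RANK+ libraries, and 77.4 and 92.6 in CCL21-RANK- libraries. It was thus higher in CCL21+RANK- than CCL21-RANK+ TECs (log2 fold change 0.67, SE 0.12, adjusted p = 0.00120) and lower in CCL21-RANK+ than CCL21-RANK- TECs (-1.01, SE 0.13, adjusted p = 0.000206), and none of its 8 values held a fraction of a read.

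Ribosomal protein genes have many processed copies in the genome, and the authors' counting divided reads among them. In 82 of the 92 genes at least 1 value was not a whole number, and over the class 84.5% of values were not whole, against 23.7% for initiation factors, 36.5% for elongation factors and 10.7% for all tested genes. Single values of these genes are therefore estimates that depend on how reads were split. The 300 loci named as copies (-ps) held between 0.324% and 0.428% of the counts of the ribosomal protein genes, and adding these counts to the parent genes left 37 genes called lower in CCL21+RANK- than CCL21-RANK+ TECs.

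Initiation factors changed in both directions. Relative to CCL21-RANK+ TECs, 9 of 55 were higher in CCL21+RANK- TECs and 18 were lower, with a median log2 fold change of -0.16. These shares of 16.4% and 32.7% were below and near the 23.1% and 30.6% of all tested genes. Scaling to the library totals gave 6 higher and 20 lower, so the share of higher calls depends on the scaling. Between CCL21-RANK+ and CCL21-RANK- TECs, 11 were higher in CCL21-RANK+ TECs and 10 were lower with a median of -0.06, or 20% and 18.2% against 27.0% and 21.9% of all tested genes. DESeq2's size factors gave 18 and 6 with a median of 0.075, a change of sign. The class includes eIF2 kinases, 4E-binding proteins, associated proteins and paralogs. Of the 39 core factors, 4 (10.3%) were higher and 13 (33.3%) lower in CCL21+RANK- than CCL21-RANK+ TECs. Between CCL21-RANK+ and CCL21-RANK- TECs, 6 were higher and 6 lower (15.4% each). Their lowest library was spread over all 8 libraries, with at most 11 genes in 1 of them, CCL21+RANK- replicate 1. A CCL21+RANK- library was lowest for 22 of the 39, and a CCL21-RANK+ library was highest for 21.

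**Figure D4:**
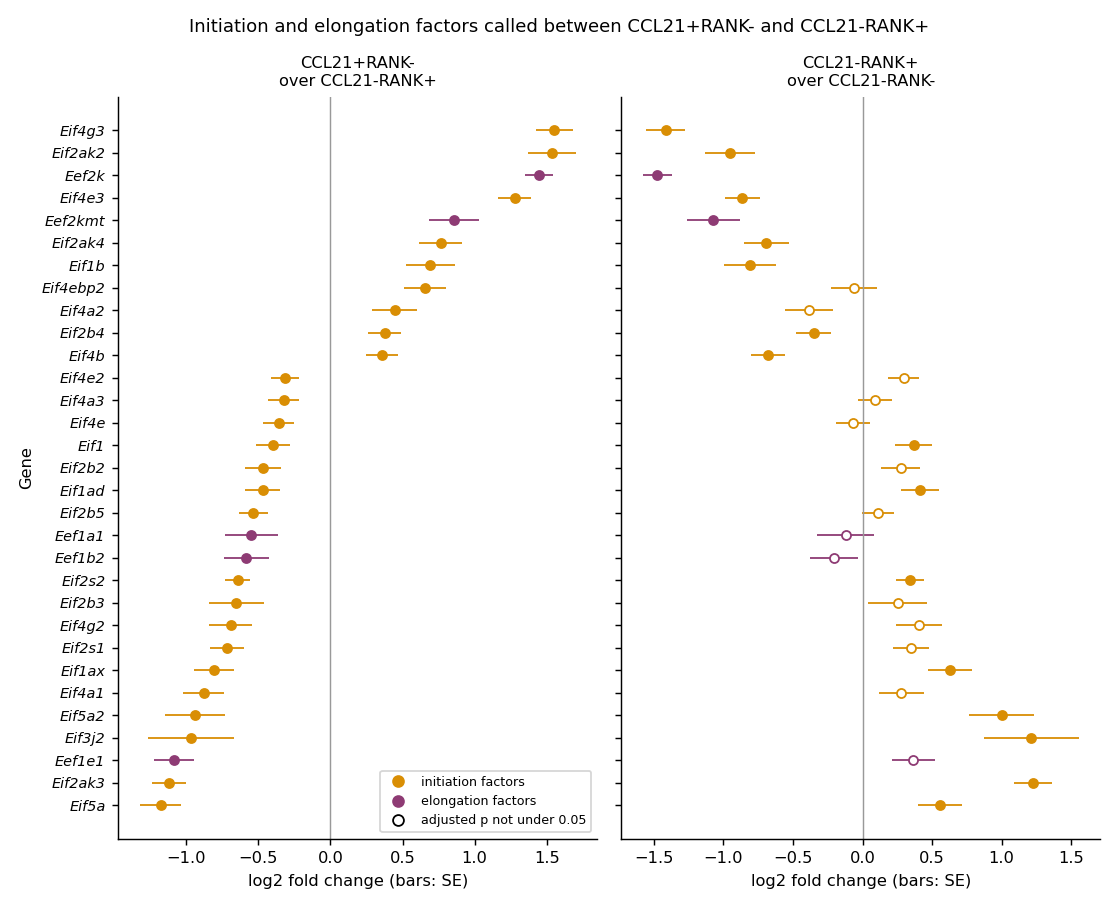
Log2 fold changes with SE of the initiation and elongation factor genes (rows) that passed the test in CCL21+RANK- over CCL21-RANK+ TECs, in that comparison and in CCL21-RANK+ over CCL21-RANK- TECs. Eif4g3 (1.55 and -1.42) and Eef2k (1.45 and -1.48) lie at the top and Eif5a (-1.18 and 0.56) at the bottom, Eef1a2 and Eif4e1b are left out because a group was at 0, and open symbols did not pass the test.

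The cap-binding and unwinding factors of the eIF4 group had calls in both directions. Of 12 genes tested, 4 were higher in CCL21+RANK- than CCL21-RANK+ TECs and 6 were lower, or 33.3% and 50% against 23.1% and 30.6% of all tested genes. Eif4g3, 1 of the scaffolds that join the cap-binding protein to the ribosome, stood at 16.0, 15.6 and 14.3 RPKM in CCL21+RANK- libraries, 5.58, 5.10 and 4.97 in CCL21-RANK+ libraries, and 11.7 and 16.1 in CCL21-RANK- libraries. It was higher in CCL21+RANK- than CCL21-RANK+ TECs by 1.55 ± 0.13 on the log2 scale (SE, adjusted p = 8.91e-06) and lower in CCL21-RANK+ than CCL21-RANK- TECs by a log2 fold change of -1.42 (SE 0.14, adjusted p = 3.09e-05). Its relative Eif4g1 ranged from 65.0 to 83.9 RPKM with no call in either comparison (log2 fold changes 0.09 and -0.10, adjusted p = 0.587 and 0.593).

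Eif4e3, a cap-binding relative of Eif4e, stood at 12.9, 13.3 and 12.8 RPKM in CCL21+RANK- libraries, 5.21, 5.80 and 5.11 in CCL21-RANK+ libraries and 10.5 and 9.01 in CCL21-RANK- libraries. The log2 fold changes were 1.28 (SE 0.11, adjusted p = 1.36e-05) and -0.86 (SE 0.12, adjusted p = 0.000359). Eif4e itself had a log2 fold change of -0.36 between CCL21+RANK- and CCL21-RANK+ TECs (SE 0.11, adjusted p = 0.0194), a call lost without CCL21+RANK- replicate 1 or CCL21-RANK+ replicate 2.

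The helicases that unwind the leader were also unlike each other. Eif4a1 stood at 61.2, 56.5 and 70.2 RPKM in CCL21+RANK- libraries and 94.3, 121 and 131 in CCL21-RANK+ libraries (log2 fold change -0.88, SE 0.14, adjusted p = 0.000684). Eif4a2 stood at 41.3, 35.5 and 32.4 RPKM against 33.4, 23.3 and 23.3 (log2 fold change 0.45, SE 0.16, adjusted p = 0.0340). The Eif4a2 libraries overlapped, and its call was lost in 12 of the 18 alternatives run, each of the other scalings included. Eif4e1b, an oocyte form of the cap-binding protein, was at 0 counts in all CCL21+RANK- and CCL21-RANK- libraries and had 145 counts over the 3 CCL21-RANK+ libraries, at least 47.7-fold higher than in CCL21+RANK- TECs against a floor of 3 counts over the group, or 28.6-fold without CCL21-RANK+ replicate 1.

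The 4E-binding proteins hold Eif4e away from the scaffold. Of the 3 tested, 1 was called higher in CCL21+RANK- than CCL21-RANK+ TECs and 0 lower, against 23.1% and 30.6% of all tested genes. Eif4ebp2 stood at 54.1, 44.8 and 43.9 RPKM in CCL21+RANK- libraries, 24.7, 35.2 and 30.7 in CCL21-RANK+ libraries and 33.8 and 29.1 in CCL21-RANK- libraries (log2 fold change 0.66 between the first 2, SE 0.15, adjusted p = 0.00441). Eif4ebp1 had a log2 fold change of 0.45 in the same comparison (adjusted p = 0.0533), and Eif4ebp3 0.08 (adjusted p = 0.861).

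The kinases of the alpha subunit of eIF2 respond to different stresses, and their transcripts differed in direction. Eif2ak2, the kinase PKR that senses double-stranded RNA and is induced by interferon, stood at 10.6, 11.4 and 9.76 RPKM in CCL21+RANK- libraries, 4.15, 3.40 and 3.42 in CCL21-RANK+ libraries, and 5.59 and 8.58 in CCL21-RANK- libraries. It was higher in CCL21+RANK- than CCL21-RANK+ TECs (log2 fold change 1.53, SE 0.17, adjusted p = 4.56e-05) and lower in CCL21-RANK+ than CCL21-RANK- TECs (-0.95, SE 0.18, adjusted p = 0.00179). Eif2ak4, the kinase GCN2 that senses lack of amino acids, stood at 3.30, 3.49 and 2.60 RPKM, 1.66, 1.84 and 2.02 RPKM, and 3.17 and 2.78 RPKM in the same populations, with log2 fold changes of 0.77 (SE 0.15, adjusted p = 0.00189) and -0.69 (SE 0.16, adjusted p = 0.00645). The last call was lost without CCL21-RANK- replicate 1.

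Eif2ak3, the kinase PERK of the endoplasmic reticulum stress response, had the opposite pattern. It stood at 5.17, 4.57 and 4.41 RPKM in CCL21-RANK+ libraries, 2.17, 2.11 and 2.24 in CCL21+RANK- libraries and 2.07 and 1.96 in CCL21-RANK- libraries. The log2 fold changes were -1.12 between CCL21+RANK- and CCL21-RANK+ (SE 0.12, adjusted p = 4.06e-05) and 1.22 between CCL21-RANK+ and CCL21-RANK- (SE 0.14, adjusted p = 6.72e-05). Eif2ak1, the heme-regulated kinase, ranged from 6.42 to 7.81 RPKM and was called in neither comparison (adjusted p = 0.349 and 0.749).

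**Figure D5:**
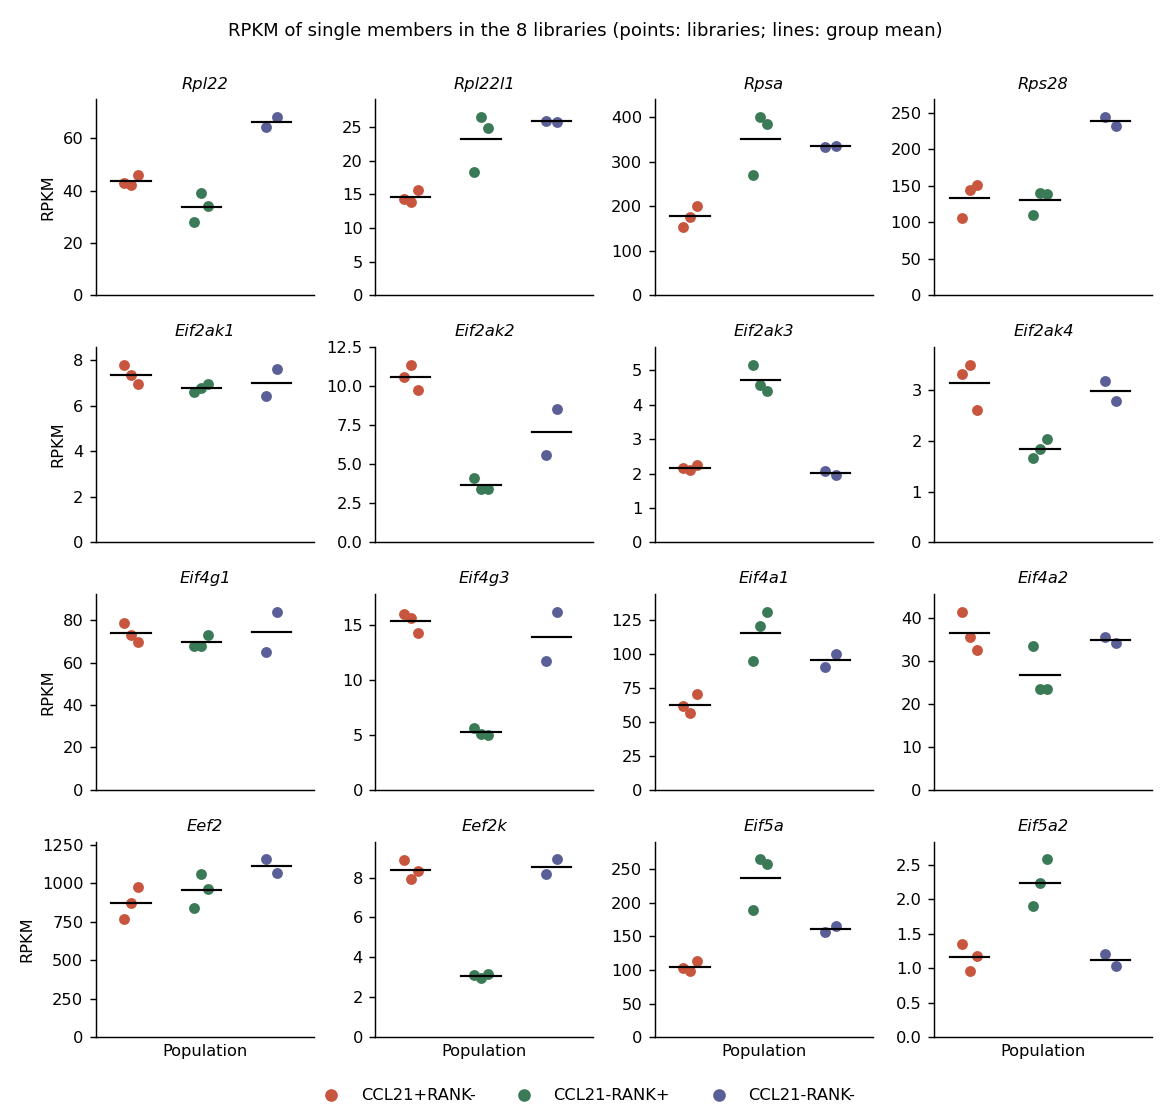
RPKM of 16 members in the 8 libraries, with points for libraries and a line at the group mean. Eif2ak3 is highest in CCL21-RANK+ libraries (4.41 to 5.17 RPKM), where Eif2ak2, Eif2ak4, Eif4g3 and Eef2k are lowest, and Rpl22 and Rpl22l1 differ in the order of CCL21+RANK- and CCL21-RANK+ libraries.

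The genes of eIF2 and of its exchange factor eIF2B are few, and their counts are given beside the shares of all tested genes. Eif2s1, the alpha subunit that these kinases modify, stood at 8.55, 8.27 and 9.06 RPKM in CCL21+RANK- libraries, 11.8, 15.1 and 15.6 in CCL21-RANK+ libraries, and 11.4 and 10.9 in CCL21-RANK- libraries (log2 fold change of CCL21+RANK- over CCL21-RANK+ -0.71, SE 0.12, adjusted p = 0.000688). Of 4 eIF2 subunit genes, 2 were lower in CCL21+RANK- than CCL21-RANK+ TECs and 0 higher, and of 5 eIF2B subunit genes 3 were lower and 1, Eif2b4, higher, where 30.6% of all tested genes were lower and 23.1% higher. The eIF2 genes include the X-linked Eif2s3x (45.8 to 74.4 RPKM) and the Y-linked Eif2s3y (0.683 to 2.04 RPKM), which was detected in all 8 libraries. The sex of the embryos is not in the labels.

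Few subunits of eIF3, the largest initiation factor, passed the test. Of 14 tested, 1 was lower in CCL21+RANK- than CCL21-RANK+ TECs, with a median log2 fold change of -0.10 and 30.6% of all tested genes called lower. That gene was Eif3j2, a close copy of Eif3j1 whose 8 values all held fractions of reads, at 1.23, 1.30 and 0.797 RPKM against 2.502, 2.25 and 1.74 (log2 fold change -0.97, SE 0.30, adjusted p = 0.0198), and its call was lost without CCL21+RANK- replicate 3 or CCL21-RANK+ replicate 2. Between CCL21-RANK+ and CCL21-RANK- TECs, 2 eIF3 genes were higher and 3 lower, or 14.3% and 21.4% against 27.0% and 21.9% of all tested genes, and Eif3j2 was among the higher ones (log2 fold change 1.21, SE 0.34, adjusted p = 0.0149), a call lost without either CCL21-RANK- library.

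Eif5a, the hypusine-bearing factor that relieves stalled ribosomes, had the most negative log2 fold change between CCL21+RANK- and CCL21-RANK+ TECs among initiation factors detected in both. It stood at 102, 98.0 and 114 RPKM in CCL21+RANK- libraries, 189, 264 and 257 in CCL21-RANK+ libraries, and 156 and 165 in CCL21-RANK- libraries. The log2 fold change was -1.18 ± 0.14 (SE, adjusted p = 9.94e-05), and the 3 populations did not overlap. Its paralog Eif5a2 stood at 1.90, 2.23 and 2.58 RPKM in CCL21-RANK+ libraries and between 0.965 and 1.36 in the other libraries (log2 fold change -0.94, SE 0.21, adjusted p = 0.00384). Both were higher in CCL21-RANK+ than CCL21-RANK- TECs, Eif5a by 0.56 (adjusted p = 0.0165, a call lost without either CCL21-RANK- library) and Eif5a2 by 1.00 on the log2 scale (adjusted p = 0.00633, a call lost without CCL21-RANK- replicate 2). Eif1b, a relative of the start-codon factor Eif1, was higher in CCL21+RANK- than CCL21-RANK+ TECs (log2 fold change 0.69, SE 0.17, adjusted p = 0.00640).

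Of the 13 elongation factor genes, 4 were lower in CCL21+RANK- than CCL21-RANK+ TECs and 2 were higher, with a median log2 fold change of -0.21. These shares of 30.8% and 15.4% were near and below the 30.6% and 23.1% of all tested genes. In CCL21-RANK+ compared to CCL21-RANK- TECs 1 was higher and 4 were lower (median -0.22), where 27.0% and 21.9% of all tested genes were called, and DESeq2's size factors gave 3 higher. Of the 13 genes, 7 encode modifying enzymes or associated proteins and 1 a tissue-restricted paralog. Of the 5 core factors, 2 (40%) were lower and 0 higher in CCL21+RANK- than CCL21-RANK+ TECs, with a median of -0.22. In CCL21-RANK+ compared to CCL21-RANK- TECs, 1 of these 5 (20%) was lower and 0 higher. Eef1a1, which delivers aminoacyl-tRNA and was the most abundant member in all 8 libraries, stood at 1564, 1783 and 2009 RPKM in CCL21+RANK- libraries, 2106, 2982 and 2738 in CCL21-RANK+ libraries and 2926 and 2751 in CCL21-RANK- libraries (log2 fold change -0.55, SE 0.18, adjusted p = 0.0284). This call was lost on leaving out any of 4 libraries (CCL21+RANK- replicate 1 or 2, CCL21-RANK+ replicate 2 or 3). Its exchange factor Eef1b2 fell by 0.58 on the log2 scale (SE 0.16, adjusted p = 0.0104). Eef2, the translocase, had a log2 fold change of -0.13 (SE 0.15, adjusted p = 0.498).

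Eef2k, the kinase that inhibits eEF2, stood at 8.87, 7.93 and 8.30 RPKM in CCL21+RANK- libraries, 3.12, 2.95 and 3.15 in CCL21-RANK+ libraries, and 8.17 and 8.91 in CCL21-RANK- libraries. The log2 fold changes were 1.45 ± 0.09 between CCL21+RANK- and CCL21-RANK+ TECs (SE, adjusted p = 2.22e-06) and -1.48 ± 0.10 between CCL21-RANK+ and CCL21-RANK- TECs (SE, adjusted p = 3.79e-06). CCL21-RANK+ libraries were below all others by a wide gap, and the libraries without the RANK reporter overlapped. Eef2kmt, an enzyme that methylates eEF2, was likewise lowest in CCL21-RANK+ libraries (log2 fold changes 0.86 and -1.07, adjusted p = 0.00259 and 0.00137).

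Eef1a2, the muscle and neuron form of Eef1a1, was at 0 in both CCL21-RANK- libraries, at 0, 0.0116 and 0.259 RPKM in CCL21+RANK- libraries and at 5.53, 1.11 and 1.32 RPKM in CCL21-RANK+ libraries. The 975 counts over the CCL21-RANK+ libraries were at least 277-fold higher than in CCL21-RANK- TECs against a floor of 3 counts over the group. Without CCL21-RANK+ replicate 1, which held 735 of them, the bound was 114-fold. Eef1e1, a scaffold protein of the tRNA synthetase complex, was lower in CCL21+RANK- than CCL21-RANK+ TECs (log2 fold change -1.08, SE 0.14, adjusted p = 0.000150). Eef1akmt1, a methyltransferase of eEF1A, was lower in CCL21-RANK+ than CCL21-RANK- TECs (-0.73, SE 0.20, adjusted p = 0.0132), a call lost without CCL21-RANK+ replicate 3 or CCL21-RANK- replicate 1.

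Genes that build ribosomes or regulate them were examined from lists chosen for their function, to be read against the 23.1% higher and 30.6% lower of all tested genes in CCL21+RANK- over CCL21-RANK+ TECs and the 27.0% and 21.9% in the other tested comparison. Of 40 ribosome biogenesis factors, 20 were lower in CCL21+RANK- than CCL21-RANK+ TECs and 2 higher (median log2 fold change -0.40), while between CCL21-RANK+ and CCL21-RANK- TECs 3 were higher and 4 lower (median -0.05). Nop56 of the box C/D particles stood at 7.35, 7.42 and 7.23 RPKM in CCL21+RANK- libraries, 12.3, 16.9 and 16.8 in CCL21-RANK+ libraries, and 9.12 and 11.0 in CCL21-RANK- libraries (log2 fold change -1.07). The helicase Ddx21 differed by -0.85 and the histone chaperone Npm1 by -0.81 (adjusted p = 0.00961). Ubtf, which activates RNA polymerase I, went the other way (log2 fold change 0.93).

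Fau and Rack1, whose products belong to the small subunit under other symbols, had log2 fold changes of -0.05 (adjusted p = 0.710) and -0.49 (adjusted p = 0.0552) in CCL21+RANK- relative to CCL21-RANK+ TECs, and Fau was lower in CCL21-RANK+ than CCL21-RANK- TECs (-0.32, adjusted p = 0.0377). Of 9 other mRNAs known to start with an oligopyrimidine tract, 2 of which are Eef1a1 and Eef2, 1 was higher and 2 lower in CCL21+RANK- than CCL21-RANK+ TECs. Of 6 termination and recycling factors 2 were lower, and of 22 cytosolic aminoacyl-tRNA synthetase genes 1 was higher and 5 were lower. Among 15 genes of mTOR and Myc control, 9 were higher, among them Rictor (log2 fold change 0.72) and Rheb (0.46), and 3 were lower, Mycl (-1.99), Rps6kb2 (-0.64) and Myc (-0.60, adjusted p = 0.0323). Myc stood at 10.5, 12.3 and 15.0 RPKM in CCL21+RANK- libraries, 13.0, 23.1 and 21.1 in CCL21-RANK+ libraries and 24.9 and 25.4 in CCL21-RANK- libraries, so the first 2 populations overlapped. Of 10 targets of the integrated stress response that passed the filter, 1 was higher and 1 lower in CCL21+RANK- than CCL21-RANK+ TECs, namely Psat1 (1.95) and Slc7a11 (-0.93).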

How the data were processed

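RNA was sequenced from 8 libraries of TECs sorted from E17 embryos. Per the labels, libraries were made with the NEBNext Ultra II Directional kit, whereas the study's methods name TruSeq Stranded Total RNA and CLC Genomics Workbench. The submitters' processing notes name bcl2fastq 2.20, Trimmomatic, STAR 2.5.1, RSEM 1.3.1 and mm10. The authors deposited 1 table of expected counts per gene, in which RSEM divides reads that match several genes, with no normalization. All 55450 identifiers matched GENCODE M21, which gave positions and exon lengths.

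Expected counts were rounded and tested with edgeR 4.0.16 in R 4.3.3 (TMM, filterByExpr, quasi-likelihood test) in 1 model with 3 group means over the 8 libraries, and p-values were adjusted over 21451 genes by Benjamini-Hochberg. Calls required an adjusted p under 0.05. The common coefficient of biological variation was 0.326, which exceeds counting error for expressed genes, and floors cover counting error only. RPKM divided TMM-scaled CPM by the summed exon length. The test was checked on simulated counts. Replicate libraries differed beyond sampling noise in every pair.

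Members, gene lists and comparisons were chosen with earlier results of these data known, and the lists of markers and pathway genes are not independent of them. Named genes were the 5 ribosomal protein genes with the highest mean RPKM, the called members with the largest fold changes per class and direction (5 and 3 in the 2 tested comparisons, over 1 RPKM and not overlapping), the 3 ribosomal protein genes with the largest differences between CCL21+RANK- and CCL21-RANK- TECs, and a fixed set of paralogs and regulators. Other genes were named after their values were seen. Some genes under these rules are not reported here. Alternatives were other scalings (DESeq2 1.42.0 size factors, library totals, upper quartile), DESeq2's Wald test, other filters and thresholds, pseudogene copies added, the replicate number as a block, and leaving out Gm26917 and Gm42418 or each library. Sequences came from RefSeq (GRCm38.p6), in which 120 of 161 members matched. Figures were drawn with matplotlib 3.10.9.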

Additional observations from a re-analysis of the deposited data

How the results depend on the processing

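The median of all tested genes between CCL21+RANK- and CCL21-RANK+ TECs moved from -0.11 with TMM to -0.20 with DESeq2 size factors, and between CCL21-RANK+ and CCL21-RANK- TECs from 0.06 to 0.20, while the ribosomal protein median minus that of all genes was -0.23 and -0.36 with size factors, -0.46 and -0.15 with at least 10 counts in every library, and 0.0038 and -0.63 with no filter on low counts. Ribosomal proteins called lower in CCL21+RANK- than CCL21-RANK+ numbered 37, against 61 with DESeq2's Wald test and 63 with at least 10 counts in every library (which tests fewer genes). They numbered 9 with a fold over 1.5 and RPKM over 1, where 15.0% of all tested genes were lower, and 16 to 54 with 1 library left out. Those called higher numbered 2, against 1 with library totals, 1 with upper-quartile scaling, 1 with at least 10 counts, 1 with the fold threshold, and 1 to 4 with 1 library left out.

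For initiation factors in the same comparison, 10 were lower with the fold threshold, 15 to 23 with 1 library left out, and 6 to 11 were then higher. Their median of -0.16 became -0.25 with size factors and with the Wald test, -0.28 with totals, -0.24 with upper quartile, -0.30 with at least 10 counts and -0.24 to -0.11 with 1 library left out. Elongation factors called lower numbered 2 with the fold threshold and 3 to 5 with 1 library left out, and their median of -0.21 became -0.28 with size factors, upper quartile and the Wald test, -0.31 with totals and -0.36 to -0.15 with 1 library left out. The ribosomal protein median of -0.35 was -0.44 to -0.25 with 1 library left out, -0.46 with totals and -0.48 with at least 10 counts.

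Between CCL21-RANK+ and CCL21-RANK- TECs, the 25 ribosomal proteins called lower became 14 with totals, 16 with upper quartile, 12 with at least 10 counts, 9 with the fold threshold and 8 to 27 with 1 library left out, and the median of -0.29 became -0.11 with at least 10 counts and -0.37 to -0.19 with 1 library left out. The 11 initiation factors called higher became 18 with size factors, the Wald test or at least 10 counts, 17 with upper quartile, 4 with the fold threshold and 3 to 17 with 1 library left out. Their 10 lower calls became 6 with size factors, totals, upper quartile, at least 10 counts or the fold threshold, and 5 to 11 with 1 library left out. Their median of -0.06 changed sign, to 0.075 with size factors and with the Wald test, 0.056 with totals, 0.055 with upper quartile, 0.14 with at least 10 counts and -0.09 to 0.01 with 1 library left out. Elongation factors called higher became 3 with size factors, upper quartile, the Wald test or without Gm26917 and Gm42418, 2 to 4 were lower with 1 library left out, and their median of -0.22 became -0.0854 with size factors and the Wald test, -0.11 with totals, upper quartile and at least 10 counts, and -0.30 to -0.11 with 1 library left out. The causes of these changes were not tested. At the fold threshold, 14.0% of all tested genes were called higher and 15.2% lower in CCL21-RANK+ than CCL21-RANK- TECs.

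In CCL21+RANK- over CCL21-RANK- TECs the medians with 1 library left out ranged from -0.74 to -0.58 for ribosomal proteins, -0.16 to -0.09 for initiation factors and -0.49 to -0.36 for elongation factors. Without Gm26917 and Gm42418, 2 loci that took 6.89% to 19.4% and 1.47% to 10.7% of the counts, ribosomal proteins took 2.85%, 4.22% and 4.51% of the counts in CCL21+RANK-, CCL21-RANK+ and CCL21-RANK- TECs. Of 53 calls on named genes, 37 were kept in every alternative run on them and none changed sign. The fold threshold was not among those alternatives. Leaving out a CCL21-RANK- library leaves 1, which is assumed to vary like the other groups.

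With the replicate number as a block, 45 ribosomal proteins were lower in CCL21+RANK- than CCL21-RANK+ TECs, 41 were lower in CCL21-RANK+ than CCL21-RANK- TECs, and the elongation factor median in the latter became -0.31. Of all tested genes 50.3% and 44.0% were called in either direction in these comparisons with the block. Whether equal numbers mark a shared sort is not in the labels. Replicate 1 held the lowest ribosomal protein share in CCL21+RANK-, CCL21-RANK+ and CCL21-RANK- TECs (2.05%, 3.00% and 3.60%). Deviations of CCL21+RANK- and CCL21-RANK+ libraries with the same number correlated at 0.126, 0.0485 and 0.0707. Those with CCL21-RANK- libraries correlated at -0.117 to -0.0411.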
